A study of Mus musculus with 4 samples.

Results

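Broad islands of BRG1/BRM ChIP-seq signal were described in mouse neurons depolarized with KCl. They were all islands of 5 kb or more in the list called on the KCl library, 620 of 20966 KCl islands (2.96%), in a series of 21677 islands in all. The KCl group was wild-type primary cortical neurons from mouse embryos in the last week of gestation, grown for 6 days in vitro and held in 50 mM KCl for 1 h. The basal group was the same wild-type culture without the added KCl. Depolarized cultures had received 1 µM TTX, a sodium channel blocker, and 100 µM APV, an NMDA receptor blocker, from day 5. Whether basal cultures also received these blockers is unclear from the labels. Each condition had 1 immunoprecipitation (IP) with the J1 antibody, which binds both BRG1 and BRM, and 1 input. Only the island lists of the KCl IP (20966 islands) and the basal IP (711 islands) were analysed, and with 1 library per condition no difference between conditions has a replicate check or a test. The cultures are bulk material, so more BRG1/BRM per cell and more cells carrying it cannot be told apart.

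BRG1 and BRM are the alternative ATPases of the BAF (mammalian SWI/SNF) complexes, which use ATP to slide or evict nucleosomes, and neurons carry a BAF complex with neuron-specific subunits. Depolarization with KCl opens voltage-gated calcium channels and induces activity-regulated genes, beginning with rapid transcription factor genes such as Fos. SICER, the caller used by the authors, joins enriched windows that lie close together, so an island is a stretch of diffuse enrichment and not a summit, and its width depends on the gap allowed between windows.

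Width chose the islands, so their widths, reads and folds are given as descriptions with no test. The deposited fold is IP reads over control reads, scaled down by 1.59, a constant of the KCl list. Intervals of folds and shares are 95% exact (Clopper-Pearson) intervals and cover counting error only, since reads without molecular identifiers are not independent molecules. The threshold fell in a continuous range of widths. The 93 islands of exactly 5000 bp had medians of 135 IP reads, 51 control reads and 1.69-fold enrichment, and the 102 islands of 4800 bp, just outside, had medians of 129 IP reads, 46 control reads and 1.76-fold.

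The promoters of 6 genes show the kind of sequence that the broad islands cover where they lie over a gene start. They are the genes with the widest such island in 6 gene lists, 1 gene per list. Each is printed in the direction of transcription, as 250 bases before and 50 after the annotated start (RefSeq, GRCm38.p6). Capitals mark GGGCGG (the GC box core) or TGACGT (the half-site of the cyclic AMP response element) on either strand, so CCGCCC and ACGTCA are the same motifs read on the other strand.
Pou3f2, chr4:22488317-22488616, minus strand: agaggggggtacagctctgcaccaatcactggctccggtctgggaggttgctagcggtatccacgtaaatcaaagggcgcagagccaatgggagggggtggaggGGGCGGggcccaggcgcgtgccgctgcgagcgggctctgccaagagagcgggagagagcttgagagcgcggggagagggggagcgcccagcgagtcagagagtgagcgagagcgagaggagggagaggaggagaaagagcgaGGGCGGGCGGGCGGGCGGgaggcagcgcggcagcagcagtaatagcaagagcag
Arid1b, chr17:4994824-4995123, plus strand: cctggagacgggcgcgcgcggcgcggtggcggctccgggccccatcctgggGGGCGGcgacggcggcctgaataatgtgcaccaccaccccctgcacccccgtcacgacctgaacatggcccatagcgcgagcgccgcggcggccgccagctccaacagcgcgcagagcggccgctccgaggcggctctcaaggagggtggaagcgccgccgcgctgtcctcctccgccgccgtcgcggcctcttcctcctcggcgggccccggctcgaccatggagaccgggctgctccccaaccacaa
Tiparp, chr3:65528197-65528496, plus strand: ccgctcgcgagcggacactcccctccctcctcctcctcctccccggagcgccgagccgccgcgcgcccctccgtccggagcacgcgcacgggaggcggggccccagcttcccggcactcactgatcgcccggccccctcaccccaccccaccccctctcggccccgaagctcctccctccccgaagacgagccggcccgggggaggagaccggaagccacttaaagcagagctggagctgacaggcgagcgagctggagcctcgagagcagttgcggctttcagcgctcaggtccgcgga
Sox11, chr12:27342669-27342968, minus strand: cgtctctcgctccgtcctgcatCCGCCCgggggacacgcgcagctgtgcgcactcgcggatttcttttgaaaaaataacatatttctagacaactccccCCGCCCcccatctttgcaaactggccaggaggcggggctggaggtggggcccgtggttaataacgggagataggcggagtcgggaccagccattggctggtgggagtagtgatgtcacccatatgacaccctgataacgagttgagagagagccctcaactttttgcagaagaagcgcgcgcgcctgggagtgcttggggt
Nr4a3, chr4:48045055-48045354, plus strand: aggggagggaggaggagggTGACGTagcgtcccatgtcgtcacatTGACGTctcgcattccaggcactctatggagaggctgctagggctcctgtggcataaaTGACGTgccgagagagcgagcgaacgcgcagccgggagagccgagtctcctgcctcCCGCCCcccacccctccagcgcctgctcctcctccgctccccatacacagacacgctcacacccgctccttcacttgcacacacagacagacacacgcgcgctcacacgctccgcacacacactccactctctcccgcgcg
Gria2, chr3:80802786-80803085, minus strand: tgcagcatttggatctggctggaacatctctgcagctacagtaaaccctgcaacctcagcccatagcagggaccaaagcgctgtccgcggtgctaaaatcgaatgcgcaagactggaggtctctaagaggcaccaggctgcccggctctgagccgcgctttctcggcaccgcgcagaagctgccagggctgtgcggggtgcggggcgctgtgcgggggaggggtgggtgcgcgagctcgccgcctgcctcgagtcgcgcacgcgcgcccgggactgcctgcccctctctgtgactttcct

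In these windows the Nr4a3 promoter held 3 copies of TGACGT and the other 5 held none. The Pou3f2 promoter held 5 overlapping or separate copies of GGGCGG, Sox11 held 2, and Tiparp and Gria2 had no GGGCGG in the window. The CpG count per 300 bases was 42 at Arid1b, 34 at Tiparp, 26 at Nr4a3 and Gria2, and 21 at Sox11. In the Arid1b window a reading frame is open from an ATG before the annotated start to the end of the window. Whether this stretch is coding was not tested, so the counts there may not be those of a promoter alone.

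Several broad islands lay over microRNA genes. The mature sequences of some, picked after the islands were known and from no fixed list, are printed because they show which of these microRNAs share a seed. Capitals mark the seed, bases 2 to 8, and the sequences are from RefSeq (GRCm38.p6).
miR-9-5p: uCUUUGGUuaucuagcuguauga
miR-9-3p: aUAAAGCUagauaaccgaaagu
miR-137-3p: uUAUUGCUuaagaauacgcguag
miR-132-3p: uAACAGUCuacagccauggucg
miR-212-3p: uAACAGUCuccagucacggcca
miR-125b-5p: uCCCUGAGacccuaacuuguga
miR-99a-5p: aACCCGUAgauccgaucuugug
let-7i-5p: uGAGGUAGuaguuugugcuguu

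The broad islands were wide stretches of moderate enrichment. Their median width was 6000 bp, with quartiles of 5200 and 7000 bp and a maximum of 53600 bp. Together they covered 4.26 Mb, which was 10.3% of the length in KCl islands, and held 9.13% of the IP reads and 12.4% of the control reads in those islands. A broad island had a median of 171 IP reads (98 to 4275) over 61 control reads (23 to 2412). The median fold was 1.72 in broad islands (quartiles 1.52 and 1.97) and 2.44 in the other 20346 KCl islands (quartiles 1.86 and 3.43). Per kb, the IP count had a median of 28.3 in broad islands and 35.6 in the other islands, and the control count a median of 10.3 in broad islands and 9.29 in the others. A fold of at least 2 was deposited for 140 broad islands (22.6%), against 67.9% of the other islands. The interval of the fold lay above 1 in 567 broad islands (91.5%), against 86.2% of the others. These shares and the median folds come from unlike read numbers, with median IP counts of 171 and 58. An FDR cut lists an island with few reads only at a high fold, so folds of narrow and broad islands are not on equal terms. The median fold was 4.02 under 1 kb, 1.73 from 4 to under 5 kb and 1.76 from 5 to under 6 kb. In 53 broad islands the interval reached 1, although the list was called at an FDR of 0.01. The interval counts the error of control reads as well as of IP reads.

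**Figure D1:**
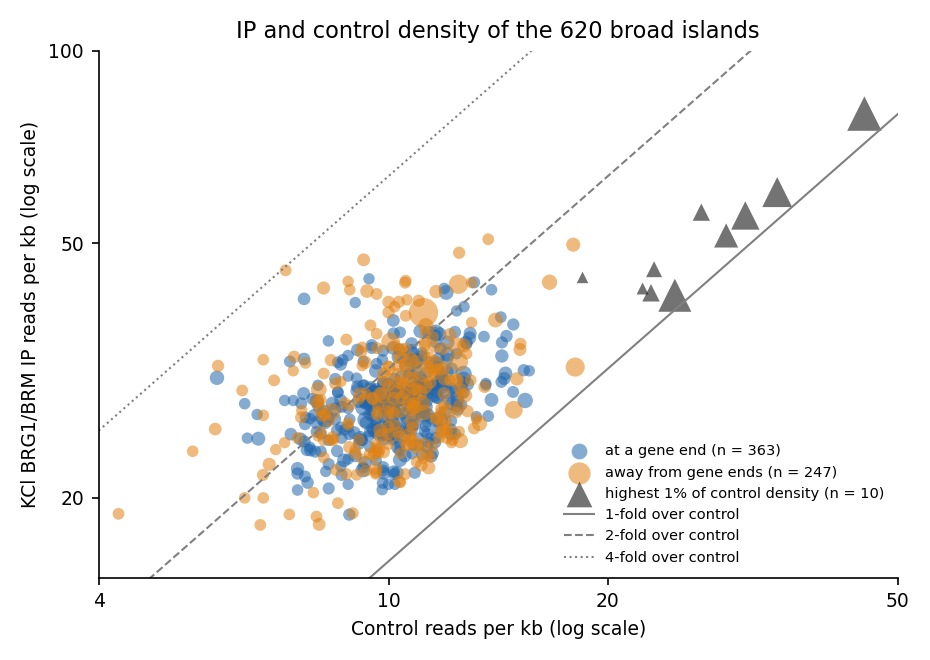
IP reads per kb against control reads per kb for each of the 620 broad KCl islands, on log axes, with marker area growing with width and lines at 1-fold, 2-fold and 4-fold over control. Most islands sit between the lines for 1-fold and 2-fold, and the 10 islands of highest control density (triangles) lie at the right, close to the line for 1-fold.

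The widest islands were of separate kinds. Of the 10 widest, 5 were among the 1% of KCl islands with the highest control density, and all 5 had folds between 1.05 and 1.12. The widest of all, chromosome Y 90759601 to 90813200, had 4275 IP reads over 2412 control reads (1.11-fold [1.06 to 1.17]) and lay 14.5 kb from Gm52481. The others were chromosome 8 20257601 to 20307000 near Gm15319 (1.05-fold), a pair on chromosome 6 at the predicted genes Gm40369 to Gm40363 (1.11-fold over 40.4 kb and 1.12-fold over 36.2 kb), and chromosome 2 77970001 to 77995800 near Cwc22 (1.11-fold). Another chromosome Y island near Gm52481, of 12.8 kb, had 716 over 344 reads (1.31-fold [1.15 to 1.49]). In all, 10 broad islands exceeded 18.3 control reads per kb, with a median of 25.8 control reads per kb and a median fold of 1.14. Leaving these 10 out, the median fold of the other 610 was 1.72.

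The other 5 of the 10 widest had ordinary control density. They lay in Tcf4 or in the stretch of chromosome 13 around Mef2c, a region named here by position only. MEF2C is a calcium-regulated transcription factor of developing neurons. The widest of these islands, 38.6 kb at chromosome 13 83712801 to 83751400, lay 45.7 kb beyond the 3′ end of Mef2c over the long non-coding RNA gene C130071C03Rik. It had 1504 IP reads over 431 control reads, a fold of 2.19 [1.97 to 2.45], and the lowest deposited p of any broad island overlapping a basal island, 3.59e-160. Broad islands of 17.0 kb (556 over 181 reads, 1.93-fold [1.63 to 2.29]) and 16.2 kb (699 over 202 reads, 2.17-fold [1.86 to 2.55]) lay 549 kb and 1244 kb downstream of the Mef2c start. Their nearest genes were Tmem161b, 152 kb away, and Ccnh, 425 kb away. Inside Mef2c were an island of 10.6 kb (310 over 117 reads, 1.66-fold [1.34 to 2.08]) and one of 6.6 kb (189 over 67 reads, 1.77-fold [1.33 to 2.38]). A further island of 8.2 kb, 839 kb downstream of the start, had 408 over 147 reads (1.74-fold [1.44 to 2.12]) and 17.9 control reads per kb, just under the level of the 1% with the highest control density. An island of 5.4 kb, 593 kb before Mef2c, had the largest fold of the region's broad islands, 2.94 [2.02 to 4.39], from 159 over 34 reads. Which gene, if any, these distal islands act on was not measured.

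**Figure D2:**
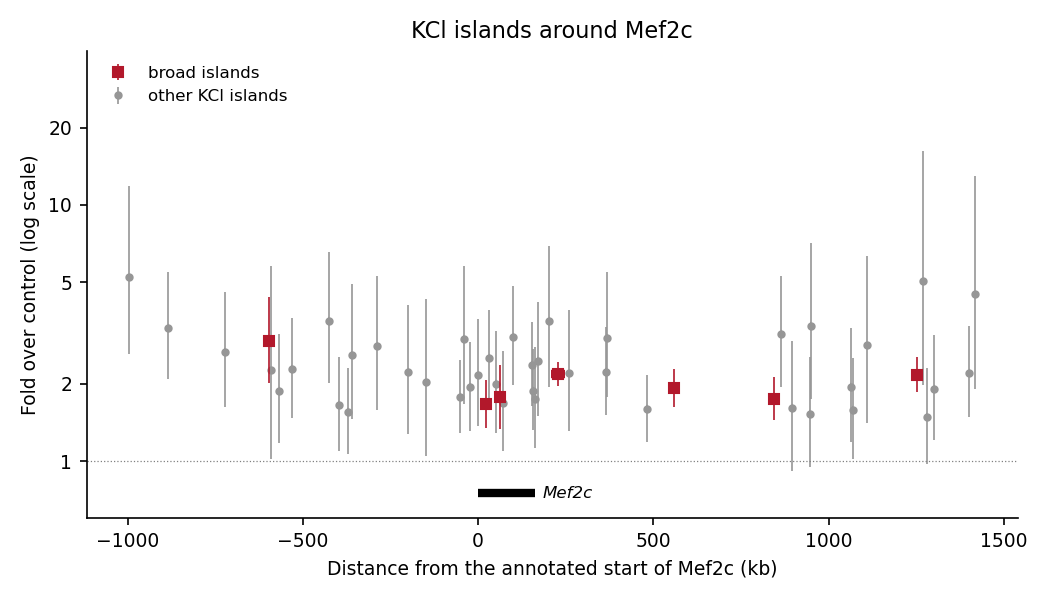
Fold over control on a log axis against distance from the annotated start of Mef2c in kb, for broad islands (red squares, widths drawn to scale) and other KCl islands (grey points), with 95% exact intervals and the gene as a black bar. The broad islands reach from 593 kb before the start to 1244 kb and more after it, with folds between 1.66 and 2.94, and narrower islands lie among them with wider intervals.

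The Tcf4 gene held the most broad islands of any gene. Tcf4 encodes an E-protein, a basic helix-loop-helix factor of neuronal development, and its 345 kb body held or adjoined 8 broad islands that covered 88.8 kb and had folds of 1.44 to 2.08. The widest, 21.4 kb at chromosome 18 69587401 to 69608800, had 675 IP reads over 240 control reads (1.77-fold [1.52 to 2.06]), and the next, 16.2 kb, had 529 over 202 (1.64-fold [1.40 to 1.94]). Several broad islands in 1 gene were found for 37 of 21887 protein-coding genes. Celf2, an RNA-binding splicing regulator, and Zeb2, a zinc-finger repressor of neural development, had 4 each, covering 35.6 kb and 29 kb. Bach2, Btbd9, Grik2, Tenm2 and Opcml had 3 each. Grik2, a kainate receptor subunit, had folds of 1.74 to 3.07 in its 3 islands, and Tenm2, a teneurin adhesion protein, 1.43 to 2.29.

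Measured from their edges, most broad islands lay at gene ends. An edge was within 2 kb of either end of a protein-coding gene for 365 of 620 broad islands (58.9% [54.9 to 62.8]), against 4491 of 20346 other KCl islands (22.1% [21.5 to 22.6]). A wide island reaches more gene ends by its width alone. A midpoint does not grow with width, but a wide island can cover a gene end with its midpoint more than 2 kb away. The share by midpoint can thus fall with width. By midpoint, 39.0% [35.2 to 43.0] of broad islands and 20.3% [19.7 to 20.9] of the other islands were within 2 kb. A further 154 broad islands (24.8%) lay inside gene bodies, against 35.9% of the others, 41 (6.61%) were intergenic within 50 kb of a gene, against 13.3%, and 60 (9.68%) were farther, against 28.7%. Folds were alike at and away from gene ends among broad islands, with medians of 1.72 and 1.72 and per-kb IP medians of 28.3 and 28.3.

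Across width classes the 2 measures parted, and neither is free of width. The share with an edge at a gene end was 3.73% under 1 kb, 31.8% from 2 to under 3 kb, 56.0% from 4 to under 5 kb, 57.7% from 5 to under 6 kb, 65.3% from 8 to under 10 kb and 42.9% at 10 kb or more. By midpoint it was 3.41%, 29.5%, 47.2%, 46.3%, 20.4% and 8.16% in the same classes. The 4 to under 5 kb class and the 5 to under 6 kb class had overlapping intervals by both measures, so the 5 kb threshold marks no step in these shares. In the class of 10 kb or more, 8 of 49 islands had high control density.

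**Figure D3:**
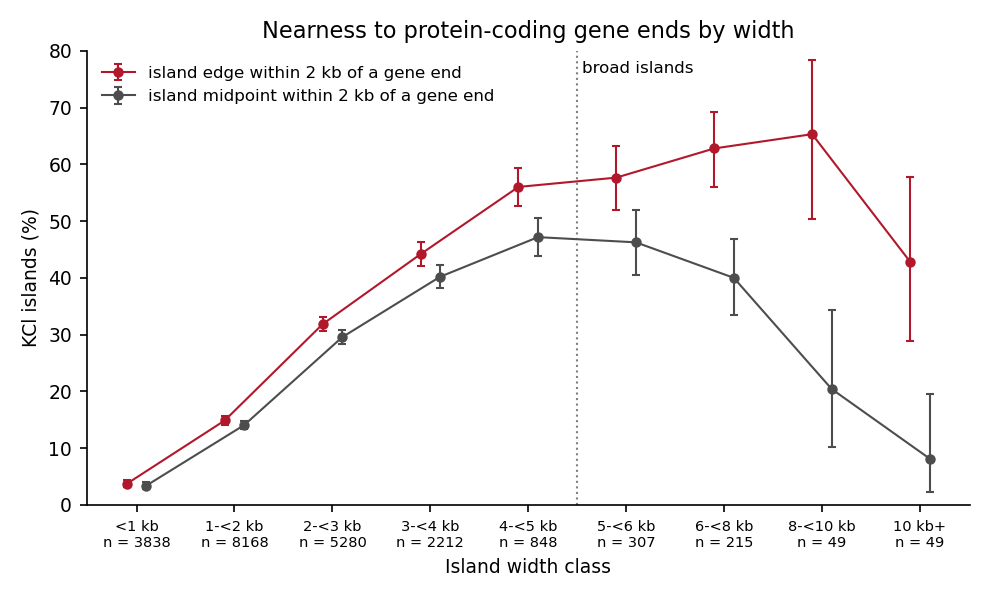
Share of KCl islands within 2 kb of a protein-coding gene end by width class, measured from the island edge (red) and from the midpoint (grey), with 95% exact intervals and the class size under each point. The edge share climbs to 65.3% at 8 to under 10 kb, while the midpoint share is highest at 47.2% in the 4 to under 5 kb class.

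Among islands near an annotated start or a 3′ end, most were near a start. Outside chromosome 18, for which no start positions were used here, 296 of 586 broad islands (50.5% [46.4 to 54.6]) covered an annotated protein-coding start, against 17.0% of the other islands. Per Mb covered, broad islands held 97.1 annotated starts and the other islands 119, so broad islands were not richer in starts for their length. Of 311 broad islands within 2 kb of a start or a 3′ end of a gene with a known start, 301 (96.8% [94.2 to 98.4]) were near a start and 10 were near a 3′ end only. The 301 include 51 that were near both. Alternative starts inside genes were counted, but only a single 3′ end per gene, which favours starts. In the other islands 91.9% [91.0 to 92.7] were near a start.

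Around a single gene start, most broad islands extended farther downstream than upstream. Reach was taken to the island edge, so it can run past the end of a short gene, as at Pou3f2. Some covered starts lie inside a longer gene, as in Mef2c and Celf2, so that upstream reach there can also be gene body. In 274 broad islands that covered the start of exactly 1 gene, the median reach was 3.94 kb downstream and 1.97 kb upstream, and 218 (79.6% [74.3 to 84.2]) reached farther downstream. In 3022 other islands the medians were 1.44 kb downstream and 0.83 kb upstream, and 70.9% [69.3 to 72.5] reached farther downstream. The reach at Pou3f2 was 11.8 kb downstream and 4.23 kb upstream. At Tiparp it was 7.75 kb downstream and 0.846 kb upstream, at Sox11 5.92 kb downstream and 2.28 kb upstream, and at Gria2 5.03 kb downstream and 1.17 kb upstream. Nr4a3 (3.095 kb downstream, 4.504 kb upstream) and Fos (1.91 kb downstream, 3.09 kb upstream) went the other way. The largest upstream reach was 13.1 kb at Nr2f1, a nuclear receptor of cortical arealization.

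**Figure D4:**
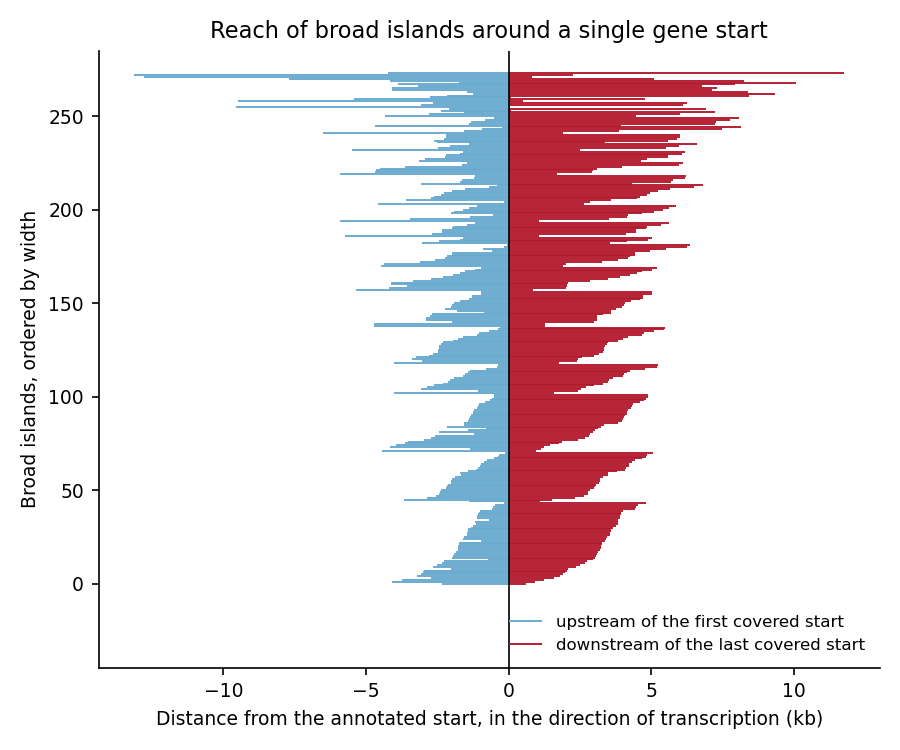
Reach in kb of the 274 broad islands that cover the start of exactly 1 protein-coding gene, upstream (blue, left) and downstream (red, right) of the start, ordered by island width. In 218 islands the red line is longer than the blue.

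Some genes lay whole inside a broad island. This was so in 29 islands (4.68%), and they included short genes of transcription factors and tubulins. Pou3f2 lay in an island of 16.0 kb, Tubb2b, a neuronal beta-tubulin, in one of 10 kb with 304 over 111 reads (1.72-fold), and Mycn, a proliferation factor, in one of 7.4 kb with 217 over 86 reads (1.58-fold). Id4, an inhibitor of basic helix-loop-helix factors, had 174 over 64 reads (1.71-fold), and Kcna3, a potassium channel, 218 over 58 reads (2.36-fold). These genes, apart from Pou3f2, were named after their values were seen. Exactly 1 gene was near 322 islands and 2 or more genes were near 43. Among the islands near most genes, 1 of 7.6 kb lay at Anapc2, Tmem210, Lrrc26 and Grin1 (177 over 80 reads, 1.39-fold [1.06 to 1.83]), so that its signal cannot be assigned to Grin1, the obligatory NMDA receptor subunit, over its neighbours. Others lay at Mief1, Atf4 and Rps19bp1 (170 over 80 reads, 1.33-fold), at Ranbp1, Trmt2a and Dgcr8 (129 over 44 reads, 1.84-fold) and at Flot1, Tubb5 and Mdc1 (194 over 59 reads, 2.07-fold).

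Transcription factor genes of cortical projection neurons were the list with the largest share at broad islands. Over all 21887 protein-coding genes, 417 (1.91%) had a broad island at a gene end and 5512 (25.2%) had any KCl island there, so that 7.57% of the genes with any island had a broad one. Of the 32 cortical factor genes, 12 had a broad island and 28 had any, so that 42.9% of those with any had a broad one. Pou3f2, a POU factor of upper-layer neurons, had the widest (406 over 160 reads, 1.59-fold [1.32 to 1.93]). Next came Bcl11a, a zinc-finger factor, with 12.8 kb and 322 over 134 reads (1.51-fold [1.23 to 1.86]). Pou3f3 (9.6 kb, 315 over 105 reads, 1.88-fold) and Nfib, a nuclear factor I gene (9.6 kb, 259 over 107 reads, 1.52-fold) also had broad islands. Others were Id2, Neurod6, Foxp1, Lmo4, Tle4, Cux2 and Emx1, with widths of 5.0 to 8.4 kb. Lmo4, a LIM-only cofactor, had the largest fold of the 12 at 2.40 [1.73 to 3.40], and Emx1, a pallial homeobox factor, the smallest at 1.32 [0.933 to 1.89], an interval that reaches 1.

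Rapid activity-regulated genes, which neurons induce without new protein synthesis, had a broad island in 9 of 38 cases and any KCl island in 28. Nr4a3, an orphan nuclear receptor, had the widest, 7.6 kb with 277 IP reads over 84 control reads (2.07-fold [1.62 to 2.68]). Dusp1 and Dusp6 encode phosphatases of MAP kinases, and had 202 over 88 reads (1.44-fold [1.12 to 1.87]) and 207 over 66 reads (1.97-fold [1.49 to 2.64]). Jun and Fos, which form the AP-1 factor, had 236 over 77 reads (1.93-fold [1.48 to 2.52]) and 155 over 59 reads (1.65-fold [1.22 to 2.27]). The Fos island was exactly 5.0 kb and thus at the threshold. Egr3, a zinc-finger factor, had 131 over 45 reads (1.83-fold). Klf6 had 201 over 55 reads (2.30-fold), Trib1, a pseudokinase, 197 over 57 (2.17-fold) and Gadd45g, a stress-response gene, 220 over 72 (1.92-fold). No broad island at these 9 genes overlapped a basal island, but over all broad islands only 41 of 620 (6.61%) did. Of the 38 rapid genes, 3 had a basal island at a gene end.

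Delayed activity-regulated genes had a broad island in 6 of 29 cases and any island in 21. Bdnf, the neurotrophin, had an island of 8.2 kb with 240 IP reads over 79 control reads (1.91-fold [1.47 to 2.49]). Tiparp, an ADP-ribosyltransferase, had 8.6 kb with 253 over 78 reads (2.04-fold [1.57 to 2.66]), and Nrp1, a semaphorin receptor, 8.0 kb with 222 over 90 reads (1.55-fold). Syt4, a synaptotagmin of secretory vesicles, had the largest fold of the 6, 2.70 [1.97 to 3.77], from 211 over 49 reads. Homer1, a postsynaptic scaffold, had 162 over 50 reads (2.03-fold [1.47 to 2.85]), and Plk2, a kinase of synaptic homeostasis, 160 over 62 (1.62-fold [1.20 to 2.21]). None of these 6 islands overlapped a basal island either, beside 6.61% of all broad islands. Of the 29 delayed genes, 1 had a basal island at a gene end.

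Other neural lists had smaller counts. Of 30 neuronal cytoskeleton and synapse genes, 5 had a broad island and 24 any. They were Grin1, Mapt, which encodes the microtubule protein tau (208 over 62 reads, 2.11-fold [1.58 to 2.85]), Gria2, an AMPA receptor subunit (202 over 72 reads, 1.76-fold [1.34 to 2.34]), the adhesion gene Nlgn1 (180 over 69 reads, 1.64-fold) and the neuronal tubulin gene Tubb3 (168 over 62 reads, 1.70-fold). Of 16 SOX factor genes, 4 had a broad island and 7 any. Thus 57.1% of those with any had a broad one, the largest such share of the lists. The 4 genes were Sox9 (226 over 85 reads, 1.67-fold), Sox11 (230 over 91 reads, 1.59-fold), Sox4 (247 over 73 reads, 2.13-fold) and Sox12 (171 over 59 reads, 1.82-fold). Sox4, Sox11 and Sox12 form the SoxC group of neuronal differentiation, and Sox9 is a glial and progenitor factor.

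Among the genes of the BAF complex itself, 2 of 26 had a broad island and 13 had any. Arid1b, a DNA-binding subunit, had 8.6 kb with 265 IP reads over 50 control reads, a fold of 3.33 [2.45 to 4.60]. Dpf3, a subunit of the neuronal complex, had 5.6 kb with 149 over 64 reads (1.46-fold [1.08 to 1.99]). In the Notch pathway only the receptor gene Notch1 of 20 genes had a broad island (128 over 43 reads, 1.87-fold), and 10 had any.

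Lists of other cell types and of housekeeping functions had few or no broad islands, but most are too short to be set apart from the 1.91% of all genes with one. Of 15 astrocyte genes 2 (13.3%) had a broad island, Sox9 and the fatty acid-binding gene Fabp7 (187 over 64 reads, 1.84-fold), and 6 had any. Broad islands were found at none of 20 ventral forebrain and interneuron genes (5 with any island), none of 15 oligodendrocyte lineage genes (2 with any), none of 15 microglia genes (0 with any), none of 20 liver and muscle genes (1 with any) and none of 39 Hox genes (0 with any). Of 81 cytosolic ribosomal protein genes 30 had a KCl island and 0 a broad one, and of 67 replication-dependent histone genes 35 had a KCl island and 0 a broad one. Occupancy at these genes measures neither their expression nor the share of each cell type in the culture, which was not tested. Over the lists, 40 of 460 distinct genes had a broad island.

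**Figure D5:**
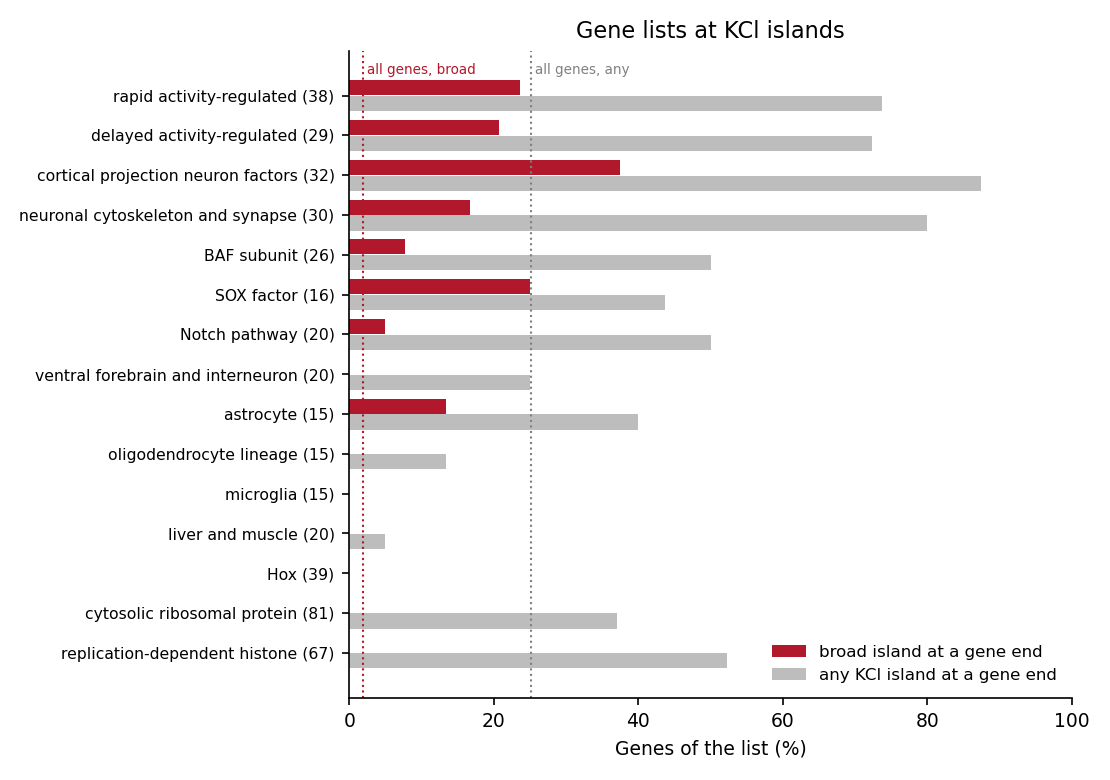
Share of each gene list with a broad KCl island (red) or any KCl island (grey) within 2 kb of a gene end, with the number of genes matched in brackets and dotted lines at the shares over all protein-coding genes, 1.91% and 25.2%. Cortical projection neuron factors reach 37.5% broad, rapid activity-regulated genes 23.7%, and 7 lists have no broad island.

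The broad islands with the largest folds were not at the genes of these lists, apart from Arid1b. The largest was 3.95 [2.81 to 5.68] at an island of 5.4 kb on chromosome 10, 29820201 to 29825600, with 245 IP reads over 39 control reads, 284 kb from the nearest gene, Rspo3. An island 6.39 kb from Ptprr, a tyrosine phosphatase gene, had 193 over 35 reads (3.46-fold [2.41 to 5.12]), and one at Slf1 262 over 49 (3.36-fold [2.47 to 4.65]). Inside genes, Csrnp3 had 298 over 57 reads (3.28-fold), Hdac9, a class IIa histone deacetylase gene, 311 over 61 (3.20-fold), Adgrl3, a latrophilin adhesion receptor gene, 218 over 44 (3.11-fold), Grik2 171 over 35 (3.07-fold) and Efnb2, the ephrin-B2 gene, 220 over 46 (3.00-fold). An island at Hes7 and Aloxe3 had 220 over 47 reads (2.94-fold). None of these 10 islands was wider than 8.6 kb.

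Islands far from genes also occurred. The farthest from any protein-coding gene lay 802 kb from Pou3f3 over the long non-coding RNA gene Gm29260 (155 over 70 reads, 1.39-fold [1.04 to 1.87]). The next ones were the island 593 kb before Mef2c, one 574 kb from Fat4, an atypical cadherin gene (320 over 71 reads, 2.83-fold [2.18 to 3.71]), one 544 kb from Klhl29 (115 over 46 reads, 1.57-fold) and one 526 kb from Usp25 (313 over 85 reads, 2.31-fold [1.81 to 2.98]). Away from gene ends, 65 of 255 broad islands (25.5% [20.3 to 31.3]) overlapped a long non-coding RNA gene, against 12.5% of the other KCl islands, with no correction for width. Malat1, an abundant nuclear non-coding RNA gene, lay under 13.2 kb with 456 over 164 reads (1.75-fold [1.46 to 2.10]), and Neat1, the scaffold RNA of paraspeckles, under 7.4 kb with 208 over 69 reads (1.89-fold [1.44 to 2.52]). These RNA genes were named after their values were seen.

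MicroRNA hairpins were counted when they lay inside an island, which is a different measure from the 2 kb window around gene ends. Of 1005 annotated hairpins, 18 (1.79%) lay in a broad island and 67 (6.67%) in any KCl island. Of protein-coding genes, 1.91% had a broad island and 25.2% any KCl island at an end. The 18 included Mir129-2, Mir129b, Mir760, Mir1895, Mir7687, Mir5133, Mir1931, Mir3058, Mir5130, Mir1894 and Gm51268, besides those described next. Mir9-2, which yields the miR-9 sequences printed above, lay in the 38.6 kb island beyond Mef2c, and the other genes for the same mature miR-9, Mir9-1 and Mir9-3, lay 1.115 kb and 1.66 kb outside broad islands of 6200 bp (1.69-fold) and 5200 bp (1.64-fold). Mir132 and Mir212, which share the seed AACAGUC and are induced by neuronal activity, lay together in an island of 5000 bp at Hic1 and Ovca2 with 142 over 37 reads (2.41-fold [1.67 to 3.56]). Mir137 lay in one of 11600 bp, 123 kb from Dpyd, with 336 over 114 reads (1.85-fold [1.49 to 2.31]). Mir125b-1 lay in one of 15400 bp in Mir100hg with 498 over 178 reads (1.76-fold [1.48 to 2.10]). Mir99a lay in one of 7600 bp with 221 over 74 reads (1.88-fold [1.44 to 2.47]), and Mirlet7c-1, whose mature product has the let-7 seed GAGGUAG, started 0.057 kb outside it. Mirlet7i, with the same seed, lay in an island of 5000 bp with 119 over 45 reads (1.66-fold [1.17 to 2.40]). The microRNAs were examined after the islands' values were known.

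Few broad islands overlapped an island called in basal neurons. The overlap was 41 of 620 (6.61% [4.79 to 8.86]), against 409 of 20346 other KCl islands (2.01% [1.82 to 2.21]). In the other direction, 43 of 711 basal islands (6.05%) overlapped a broad KCl island. Per Mb of covered length, broad islands met 10.1 basal islands and the other KCl islands 10.9. The basal list was much shorter and its own control reads per kb had a median of 16.4, so that a missing basal island does not show that BRG1/BRM was absent there, and depth was not given for either library.

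Read counts are given side by side for the overlaps of lowest KCl p. The KCl islands were chosen for their width, so their greater width and read counts beside the basal islands are no comparison between conditions. Basal folds are IP over control reads divided by 0.880, the constant of the basal list. The 38.6 kb island beyond Mef2c overlapped 3 basal islands. The 6.6 kb island in Hdac9 had 311 IP reads over 61 control reads in KCl neurons (3.20-fold [2.43 to 4.29]), and the basal island within it 49 over 35 reads (1.59-fold [1.01 to 2.53]). In Efnb2 the counts were 220 over 46 in KCl neurons (3.00-fold [2.18 to 4.22]) and 43 over 30 in basal neurons (1.63-fold [0.998 to 2.69]). In Add2, the beta-adducin gene, the KCl island of 6.2 kb had 206 over 46 reads (2.81-fold [2.03 to 3.96]) and the basal one 32 over 11 (3.31-fold [1.62 to 7.27]). Near Prkd1, a protein kinase D gene, a KCl island of 15.2 kb had 533 over 153 reads (2.19-fold [1.82 to 2.64]) and the basal one 63 over 36 (1.99-fold [1.30 to 3.08]), while a second KCl island of 6.0 kb had 234 over 60 (2.45-fold) and the basal one 51 over 27 (2.15-fold). The remaining overlaps chosen by lowest p lay near Fat4, Prl5a1 and Tmem71 and in Tcf4. The intervals of the KCl and basal folds overlapped in each of these pairs at Hdac9, Efnb2, Add2 and Prkd1. The lists rest on different libraries, and the difference in fold was not tested.

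Promoters at broad islands had the base composition of promoters at KCl islands in general. Starts lay in a broad island for 390 of 21263 promoters (1.83%) and in any KCl island for 21.9%. The median GC content was 65.2% at broad islands, 64.7% at the other KCl islands and 54.0% at promoters in no island. The median CpG count per 300 bases was 25 at broad islands, 25 at the others and 8 in no island. GGGCGG was present in 70.0% of promoters at broad islands, 71.6% at other islands, 39.1% in no island and 46.2% of all promoters. TGACGT was in 11.3% at broad islands, 12.7% at other islands and 8.49% of all promoters, and the full TGACGTCA, which contains it, in 1.79%, 3.70% and 2.23%. The AP-1 motif TGANTCA was in 3.08% at broad islands, 4.05% at other islands and 6.99% of all, TATAAA in 9.23%, 5.90% and 12.6%, and the CArG box of serum response factor in 0.256%, 1.48% and 1.52%. Both strands were searched throughout. Promoters of neighbouring genes and of alternative starts share sequence, so these shares carry no test.

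On chromosome X, 1 of 227 KCl islands was broad (0.441% [0.0112 to 2.43]), against 617 of 20735 on the autosomes (2.98% [2.75 to 3.22]). Islands on X had a median width of 1000 bp and 7.11 control reads per kb, against 1800 bp and 9.38 on the autosomes. The X island, near Btbd35f25, had 122 over 59 reads and a fold interval reaching below 1 (1.30 [0.944 to 1.80]). The part of the lower control density in this count was not tested.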

How the data were processed

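Each island list was called by the authors on 1 IP library with a control. The submitters' processing notes name BWA, mm10 (GRCm38) and SICER 1.0. The BWA version, the library totals and the input used as control for each list are not stated in labels or notes used here. File names of the lists give 200 bp as window, 600 bp as gap and 0.01 as FDR. The deposited counts are raw IP and control reads per island, the deposited p-value sets the IP count against the scaled control count, and the deposited fold is a ratio of these counts. The fewest IP reads in a broad island were 98.

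Distances to RefSeq protein-coding genes (GRCm38.p6, 21887 genes), intervals, list counts and motif counts were computed with Python 3.11.15, pandas 2.3.3 and SciPy 1.17.1, and the distance code was checked on simulated intervals. Fold intervals are exact binomial intervals of IP among IP plus control reads, divided by the list's constant (1.59 in KCl, 0.880 in basal). Start positions came from the RefSeq promoter table, which matched 17492 genes. Gene lists and island members were chosen with earlier results of these data known. Islands were named by rank: the 10 widest, the 10 of largest fold outside the 1% of highest control density, the 5 with most IP reads and with highest control density, the 5 near most genes, the 10 overlapping basal islands with lowest p, the 5 farthest from genes, up to 5 members per list by width, and all members of both activity lists. Printed promoters were taken as 1 gene per list, widest first. The TATAAA and TGACGT motifs, microRNAs, genes with several islands and the chromosome X count were added after seeing the data. Alternatives were other widths, FDR, fold, control density, merging, window and midpoint. Some results that the naming rule would cover are not reported here.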

Additional observations from a re-analysis of the deposited data

How the results depend on the processing

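Of 74 alternative values for the main results, 34 stayed within 1 spread or 1.5 times of the reported value and 40 moved. At a width of at least 4000 bp there were 1468 islands over 7.92 Mb and 978 genes, with 27.6 IP and 10 control reads per kb, 4.09% overlapping basal islands and 20.6% of the other islands at gene ends. At 6000 bp there were 313 islands over 2.63 Mb and 216 genes, with 28.7 IP and 10.5 control reads per kb. At 8000 bp there were 98 islands over 1.21 Mb and 60 genes, with 29.2 IP and 10.9 control reads per kb, a median fold of 1.68, 54.1% of broad and 23.0% of other islands at gene ends, and 11.2% overlapping basal islands. A fold of at least 2 left 140 islands over 0.907 Mb and 75 genes, with 32.2 IP and 8.60 control reads per kb, a median fold of 2.23, 49.3% of broad and 11.9% of other islands at gene ends, and 12.9% overlapping basal islands. An FDR of at most 1e-05 gave 29 IP and 10 control reads per kb, a fold of 1.80 and 16.9% of other islands at gene ends. Merging islands across gaps of up to 1000 bp gave 27.8 IP and 10 control reads per kb. By midpoint, 39.0% of broad and 20.3% of other islands lay at gene ends. Windows of 1 kb and 5 kb put 20.6% and 25.6% of the other islands there. In each of these alternatives, taken singly, the share at gene ends was higher in broad islands than in the others. Larger widths were not combined with the midpoint. By midpoint the share was 20.4% at 8 to under 10 kb and 8.16% at 10 kb or more, so the direction does not hold for the widest islands. Changing the width, FDR or fold changes by construction which islands count as broad. Of 135 alternative list counts, 30 moved. The rapid activity-regulated list ranged from 0, at 8000 bp, to 14, the delayed list from 3 to 10, the cortical factor list from 2 to 16, the synapse list from 0 to 9, the SOX list from 1 to 6, the BAF list from 1 to 4, the Notch list from 0 to 3 and the histone list from 0 to 10. No paired analysis was possible because there was 1 IP library per condition, and no replicate could be left out for the same reason. Library totals were not given, so the effect of depth was not tested.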

Other observations

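Broad islands also lay in runs, counted after their positions were seen. There were 18 runs of 3 or more broad islands with gaps of up to 250 kb, holding 69 islands. The longest at ordinary control density was at Tcf4, with 9 islands over 487 kb. A run of 6 islands on chromosome 16, from 77234801 to 77653000, had no protein-coding gene at its islands and held Mir99a, with 1383 IP reads over 467 control reads and folds of 1.23 to 2.33. Gtdc1 and Zeb2 shared a run of 5 islands over 194 kb with folds of 1.58 to 2.21. Runs of 4 lay at Celf2, at Btbd9, Glo1 and Dnah8, at Rgma and Chd2, and at Atxn10, 7530416G11Rik and Wnt7b, a Wnt ligand gene. A run of 3 islands over 44.8 kb lay at Tuba1a, the alpha-tubulin gene of newborn neurons, with 705 IP reads over 225 control reads and folds of 1.58 to 2.32. A run of 3 on chromosome 8, from 19780801 to 20307000, had folds of 1.05 to 1.15 and at least 18 control reads per kb in each island.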
